A study of Mus musculus with 12 samples.

Results

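Genes of the response to low oxygen and of glycolysis were measured in kidneys of *BdkrB2* null and *BdkrB2* WT mouse embryos. The set holds 38 genes chosen by function: the subunits and oxygen sensors of hypoxia-inducible factor (HIF), glucose and lactate transporters, glycolytic enzymes and other HIF targets. Array probes were assigned to them through their accession, which gave 55 probes for 37 of the 38 genes. All 37 had at least 1 probe well above background and were tested, among 12654 tested genes with a symbol. No probe accession matched *Vhl*, which encodes the ubiquitin ligase subunit that binds hydroxylated HIF, and it is not analysed here.

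*BdkrB2* encodes the bradykinin B2 receptor. One genotype was *BdkrB2* null and the other *BdkrB2* WT, both on a C57BL/6 genetic background and both taken at embryonic day 14.5. All embryos came from heterozygous mothers on food with 5% sodium that had been mated to heterozygous mice, so both genotypes carried the gestational high salt stress and no kidneys from mothers on ordinary food were compared. Total RNA of the 2 genotypes was hybridised together on 12 two-colour arrays: 6 with null RNA in Cy5 and WT RNA in Cy3 (null/WT), and 6 with the dyes exchanged (WT/null). Each orientation had 3 replicates of 2 arrays each, and both orientations of a replicate number shared 1 slide. The labels do not say whether a sample held 1 embryo or several, so the p-values for null over WT measure only the spread between these samples. Those for a difference between replicate numbers rest on the disagreement of the 2 orientations on a slide, which may hold the same RNA.

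HIF is a transcription factor made of an oxygen-regulated alpha subunit and a constant partner, ARNT. In oxygen, prolyl hydroxylases mark the alpha subunit and the VHL protein directs its destruction; when oxygen is low the alpha subunit accumulates and binds a short motif near genes of glucose uptake, glycolysis, mitophagy and vessel growth. The oxygen level of embryonic tissue is low, and HIF acts in kidney development, so these transcripts are normally present there. Transcript levels of the subunits do not measure the amount of HIF protein.

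The motif that HIF binds has ACGTG or GCGTG as its core, and the promoters of 5 members are shown because 2 of them had the smallest p for null over WT among members with a promoter sequence and the other 3 the smallest p for a difference between replicate numbers. Each is the 250 bases before the gene's start, 5′ to 3′ on the gene's strand, from RefSeq on GRCm38.p6. Capitals mark the letters ACGTG or GCGTG on either strand, with overlapping matches joined. The windows are chr7:138909507-138909756 on the minus strand for *Bnip3*, chr8:45999851-46000100 on the minus strand for *Ankrd37*, chr7:46845554-46845803 on the plus strand for *Ldha*, chr11:120948817-120949066 on the plus strand for *Slc16a3* and chr7:27166803-27167052 on the minus strand for *Egln2*.
Bnip3: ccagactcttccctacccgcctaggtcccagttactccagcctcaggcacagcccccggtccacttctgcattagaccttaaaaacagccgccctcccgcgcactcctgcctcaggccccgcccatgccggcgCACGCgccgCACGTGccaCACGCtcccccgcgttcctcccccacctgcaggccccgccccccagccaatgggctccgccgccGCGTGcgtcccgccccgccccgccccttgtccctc
Ankrd37: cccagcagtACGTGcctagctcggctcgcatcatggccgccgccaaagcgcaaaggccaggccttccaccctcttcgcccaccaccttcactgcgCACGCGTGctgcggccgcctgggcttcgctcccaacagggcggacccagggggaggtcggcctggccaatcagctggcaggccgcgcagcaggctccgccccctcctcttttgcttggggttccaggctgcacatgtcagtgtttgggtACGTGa
Ldha: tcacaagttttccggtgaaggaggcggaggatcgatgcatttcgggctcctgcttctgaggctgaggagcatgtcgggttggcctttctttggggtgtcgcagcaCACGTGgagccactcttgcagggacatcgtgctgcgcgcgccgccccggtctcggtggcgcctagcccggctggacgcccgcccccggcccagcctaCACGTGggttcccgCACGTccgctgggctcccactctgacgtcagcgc
Slc16a3: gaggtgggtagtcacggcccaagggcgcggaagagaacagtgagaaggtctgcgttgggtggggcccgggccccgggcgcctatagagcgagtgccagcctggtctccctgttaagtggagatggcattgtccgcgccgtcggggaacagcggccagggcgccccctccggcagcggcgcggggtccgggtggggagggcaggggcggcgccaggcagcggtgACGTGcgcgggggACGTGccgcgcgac
Egln2: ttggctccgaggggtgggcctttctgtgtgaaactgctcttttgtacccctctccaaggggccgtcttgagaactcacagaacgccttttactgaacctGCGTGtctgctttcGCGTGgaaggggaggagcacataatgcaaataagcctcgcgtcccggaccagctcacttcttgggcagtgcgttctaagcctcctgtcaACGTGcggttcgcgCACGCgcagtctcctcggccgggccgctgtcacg

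Sites numbered 4 in the *Bnip3* window, 3 in those of *Ankrd37* and *Ldha*, 2 in that of *Slc16a3* and 4 in that of *Egln2*. In *Bnip3* and *Ldha* some of them lie within CACGTG, the palindrome that other basic helix-loop-helix factors also bind. Among the 32 tested members with a promoter sequence, 29 (90.6%) held ACGTG or GCGTG, against 59.7% of the 10093 tested genes with one. ACGTG alone was in 19 members (59.4%, against 24.6%) and GCGTG in 22 (68.8%, against 48.5%). At least 2 sites were found in 21 members (65.6%, against 26.5%), and CACGTG in 5 (15.6%, against 9.88%). A gene with several starts was counted by its window with most sites, which applied to 28.1% of the members and 20.7% of tested genes. Of the 14 glycolytic enzymes, 12 held the motif, and *Gpi1* and *Tpi1* held none in this window. The share of G and C in the windows was not matched, and a match of letters is not a measured binding site.

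Before the members' values, several facts of the arrays bear on them. Between 40.4% and 57.8% of probes were well above background in null channels and 47.7% to 59.4% in WT channels. The 2 arrays of a replicate correlated at 0.711 in WT/null replicate 3 and at 0.824 to 0.923 in the others. *Xist*, which silences an X chromosome in female cells, exceeded background in 4 of 4 null channels on every slide, and in 4, 0 and 0 of 4 WT channels on slides 1, 2 and 3. The Y-linked *Ddx3y*, *Kdm5d* and *Eif2s3y* were above background in 0 null channels, and in 0, 4 and 4 of 4 WT channels on slides 1, 2 and 3, so on slides 2 and 3 genotype and these sex transcripts cannot be told apart. Of 17 embryonic kidney markers 16 were above background, *Ret* being the exception, which fits the labelled tissue. Skeletal muscle genes, 8 of 10 above background with *Actn2* and *Ckm* not, had a median log2 null over WT of 0.14, 0.45 and 1.99 on replicate numbers 1, 2 and 3. Their mean log2 brightness per replicate lay between 7.31 and 9.11 in null kidneys and between 7.23 and 7.52 in WT kidneys. Genes of tubules that mature late had medians of 0.03, 0.21 and 1.03 on the same numbers. The *Bdkrb2* probe exceeded background in 0 of 12 channels of null RNA and 1 of 12 of WT RNA, and so checks nothing.

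No hypoxia or glycolysis gene passed the threshold for null over WT, a limma p under 0.05 after Benjamini-Hochberg adjustment over all 22985 tested probes. The count was 0 of 37 members, against 3 of all 12654 tested genes (0.0237%), with 0 members higher and 0 lower in null against 0.0079% and 0.0158% of those genes. The smallest adjusted p among the members was 0.353. At an unadjusted p under 0.05 there were 6 members higher in null kidneys and 0 lower, against 5.18% and 2.59% of all tested genes. These 6 were *Epas1*, *Bnip3*, *Ankrd37*, *Ndrg1*, *Pdk1* and *Egln3*, and none is a glycolytic enzyme. With the replicate number as a block the unadjusted counts were 3 higher and 0 lower (2.61% and 0.901% of all tested genes), while 0 members passed after adjustment (0.0158% of all tested genes; smallest adjusted p among the members 0.903).

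The members' log2 null over WT had a median of 0.02 and ran between -0.15 and 0.23, beside a median of -0.00 over all tested genes. It was above 0 for 24 of 37 members, against 48.1% of all tested genes. For the 14 glycolytic enzymes the median was 0.02 with 9 above 0, and for the other 23 members it was 0.07 with 15 above 0. With each array centred on its median in place of loess, the members' median was 0.23 while that of all tested probes was 0.14.

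**Figure D1:**
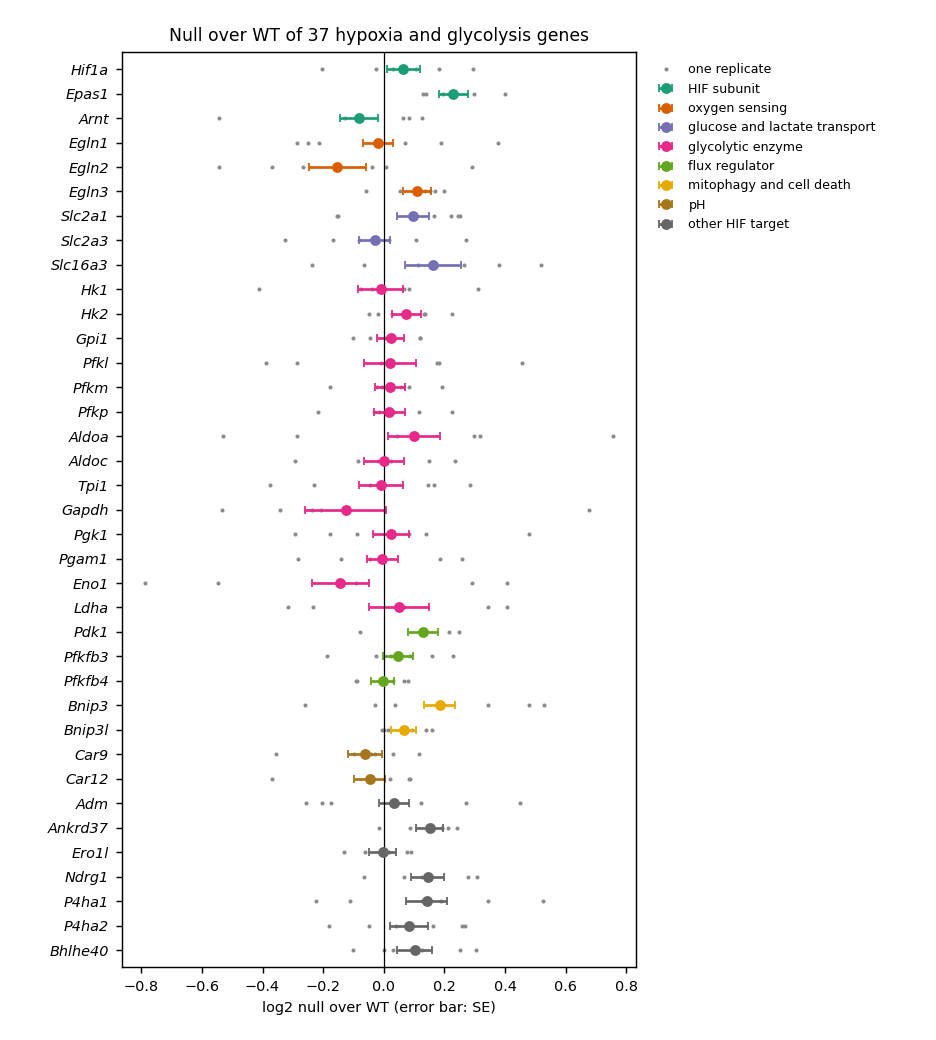
Log2 null over WT of the 37 tested members by their brightest probe. Coloured points are the fitted values with their standard errors, grey points the 6 replicates, and colours the roles. *Epas1* is the 1 member with all 6 replicates above 0.

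*Epas1* encodes HIF-2 alpha, the oxygen-regulated subunit found mainly in vessel and interstitial cells of the kidney. Its log2 brightness had a lowest, median and highest value of 12.37, 12.58 and 12.82 in null kidneys, and of 12.15, 12.24 and 12.69 in WT kidneys. The ranges overlapped, but within each replicate the null channel was the brighter one. The log2 ratios were 0.19, 0.13 and 0.40 in null/WT replicates 1, 2 and 3, and 0.22, 0.14 and 0.30 in WT/null. *Epas1* was thus the 1 member higher in all 6 replicates, against 1.67% of all tested genes, while 0 members were lower in all 6 (1.38%). The fitted value was 0.23 ± 0.05 (SE over 6 replicates, as for the other fitted values), a 1.17-fold difference. It did not pass after adjustment (limma adjusted p = 0.353, and 0.903 with the replicate block). A second *Epas1* probe exceeded background in 2 channels of either genotype and was not tested. Among the tested vessel genes, 8 of 8 endothelial markers also had values above 0, against 48.1% of all tested genes. They ran between 0.02 and 0.29, the highest being *Flt1* (limma adjusted p = 0.0777), and 0 passed (0.0237% of all tested genes). Their medians were 0.06, 0.04 and 0.11 on replicate numbers 1, 2 and 3, and their part in the *Epas1* value was not tested.

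*Hif1a*, the gene of HIF-1 alpha, did not differ past the threshold and was uneven between slides. Its log2 brightness was 9.75, 9.79 and 10.17 (lowest, median, highest) in null kidneys and 9.45, 9.72 and 10.14 in WT kidneys. The 2 ranges overlapped over most of their length. The fitted log2 ratio was 0.06 ± 0.05 (limma adjusted p = 0.741), with 0.08, -0.09 and 0.20 on replicate numbers 1, 2 and 3. *Arnt*, the gene of the constant partner, stood at -0.08 ± 0.06 by its brighter probe and at 0.10 ± 0.05 by its other one, so no direction can be given for it. *Hif1a* lies on chromosome 12, as do *Bdkrb2* itself and *Egln3*.

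The 3 prolyl hydroxylases that mark HIF for destruction had values on both sides of 0. *Egln3*, whose transcript is itself raised by HIF, had a log2 brightness of 9.09, 9.17 and 9.28 in null kidneys and of 8.95, 9.09 and 9.18 in WT kidneys. It was brighter in null in 5 of 6 replicates, and the ranges overlapped. The log2 ratio was 0.11 ± 0.05 (limma adjusted p = 0.707). *Egln1*, the main hydroxylase in most cells, stood at -0.02 ± 0.05 by its brighter probe and at 0.05 ± 0.06 by the other. *Egln2* had a log2 brightness of 10.93, 11.22 and 11.64 in null kidneys, against 10.80, 11.66 and 11.85 in WT kidneys. Its log2 ratio of -0.15 ± 0.09 was the lowest of the members (limma adjusted p = 0.724) and turned its sign between slides, with -0.15, 0.15 and -0.46 on replicate numbers 1, 2 and 3.

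Among HIF targets outside glycolysis, *Bnip3*, *Ankrd37*, *Ndrg1* and *Pdk1* had the next smallest p, and none passed. *Bnip3* encodes a mitochondrial outer membrane protein that directs mitophagy. Its log2 brightness was 11.60, 12.18 and 12.51 in null kidneys and 11.53, 11.94 and 12.30 in WT kidneys. Its ratio depended on the dye: it was 0.35, 0.48 and 0.53 in the null/WT replicates 1, 2 and 3, but -0.26, -0.03 and 0.04 in the WT/null replicates. The fitted value, which takes the dye term of 0.27 out, was 0.18 ± 0.05 (limma adjusted p = 0.571). *Bnip3l*, its mitophagy relative, stood at 0.07 ± 0.04 and at 0.02 ± 0.04 by its 2 probes.

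*Ankrd37*, an ankyrin repeat gene known as a HIF target, had a log2 brightness of 10.11, 10.44 and 10.83 in null kidneys and of 10.02, 10.36 and 10.59 in WT kidneys. It was brighter in null in 5 of 6 replicates. The fitted log2 ratio was 0.15 ± 0.04 (limma adjusted p = 0.588), with 0.14, 0.23 and 0.09 on replicate numbers 1, 2 and 3. *Ndrg1*, a gene of stress response and differentiation, had a log2 brightness of 10.20, 10.80 and 10.97 in null kidneys and of 10.13, 10.51 and 10.94 in WT kidneys. It too was brighter in null in 5 of 6 replicates, at 0.14 ± 0.05 (limma adjusted p = 0.678). *Pdk1*, the kinase gene that holds pyruvate back from mitochondria, had a log2 brightness of 9.29, 9.66 and 9.87 in null kidneys, against 9.18, 9.52 and 9.62 in WT kidneys. Its log2 ratio was 0.13 ± 0.05 (limma adjusted p = 0.685), with 0.02, 0.23 and 0.14 on the 3 numbers.

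The remaining members with the smallest p were *P4ha1*, *Slc2a1*, *Slc16a3* and *Bhlhe40*. *P4ha1*, the gene of a collagen prolyl hydroxylase subunit, stood at 0.14 ± 0.07, and at 0.17 ± 0.08 by its other probe, which was higher in all 6 replicates. *Slc2a1*, the gene of the glucose transporter GLUT1, stood at 0.10 ± 0.05 (limma adjusted p = 0.711). *Bhlhe40*, a repressor gene of the clock and of hypoxia, stood at 0.10 ± 0.06 (limma adjusted p = 0.721). *Slc16a3*, the gene of the lactate exporter MCT4, stood at 0.16 ± 0.09 with the same adjusted p, and is described with the slides. The genes that regulate acid balance had values below 0, at -0.06 ± 0.06 for *Car9* and -0.05 ± 0.05 for *Car12*, both carbonic anhydrase genes. *Adm*, the gene of the vessel-widening peptide adrenomedullin, stood at 0.04 ± 0.05, and *Ero1l*, an oxidase gene of the endoplasmic reticulum, at -0.00 ± 0.04. *P4ha2*, the gene of another collagen prolyl hydroxylase subunit, stood at 0.08 ± 0.06, and *Slc2a3*, the gene of the glucose transporter GLUT3, at -0.03 ± 0.05.

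Glycolytic enzyme genes had a median of 0.02 over all replicates. They ran between -0.14 ± 0.09 for *Eno1* and 0.10 ± 0.09 for *Aldoa*, with *Gapdh* at -0.13 ± 0.13. Their values on the 3 replicate numbers are given as counts and medians, with no test of the enzymes together. On number 2 the log2 null over WT was above 0 for 14 of 14 enzymes and for 18 of the other 23 members, which is 32 of 37 members against 47.2% of all tested genes, while with median centring in place of loess it was above 0 for 8 enzymes and 18 members, against 20.2% of all tested genes. On number 1 it was above 0 for 5 enzymes and 16 members (51.9% of all tested genes), and on number 3 for 4 enzymes and 19 members (49.2%). The enzymes' median was -0.05, 0.17 and -0.06 on numbers 1, 2 and 3, while that of all tested genes was 0.00, -0.00 and -0.00. With median centring the medians on numbers 1, 2 and 3 were 0.42, 0.04 and 0.21 for the enzymes, 0.39, -0.01 and 0.23 for all members and 0.39, -0.09 and 0.22 for all tested genes. Relative to all tested genes, the enzymes' median on number 2 was therefore higher by 0.14 with median centring and by 0.17 with loess. Among all 750 tested genes as bright as log2 14 or more, the medians were -0.01, -0.00 and 0.03. The other 23 members had medians of -0.00, 0.08 and 0.10, so their high numbers were 2 and 3.

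The 2 orientations of number 2 were not equal in this. The enzymes' median was 0.21 in null/WT replicate 2 and 0.06 in WT/null replicate 2, where the dyes were exchanged. In both orientations of number 2 the value was above 0 for 8 of 14 enzymes and 17 of 37 members, against 18.4% of all tested genes. The highest of the 3 numbers was number 2 for 11 of 14 enzymes and 20 of 37 members (30.6% of all tested genes). Which samples of number 2 differ, null or WT, is not settled by a ratio. On that number the null channels held *Xist* and the WT channels Y-linked transcripts, and the part of this or of any sample's handling in the shift was not tested.

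**Figure D2:**
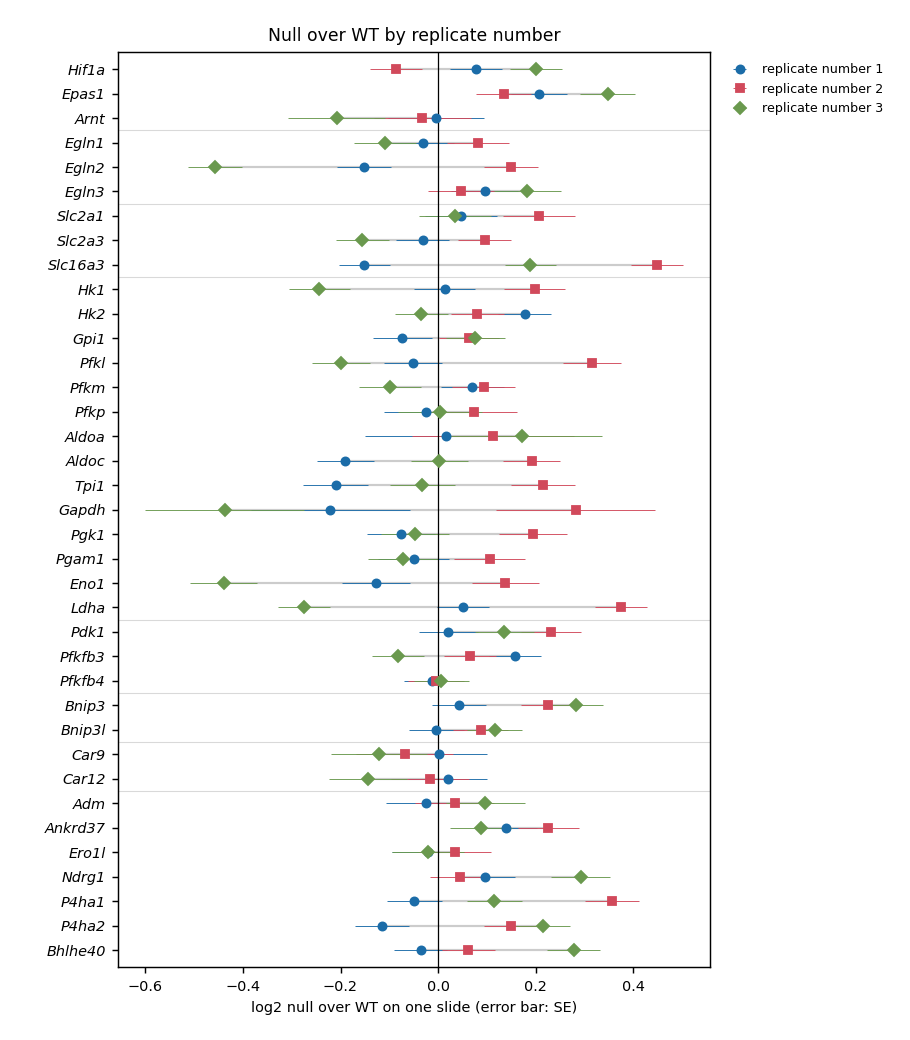
Log2 null over WT of each member on replicate numbers 1, 2 and 3, each the mean of both orientations on 1 slide, with its standard error. Horizontal lines part the roles. After loess, the 14 glycolytic enzymes (*Hk1* to *Ldha*) lie above 0 on number 2, where 8 do with median centring, and 4 of them lie above 0 on number 3.

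The difference between replicate numbers passed its own test for 1 member, *Ldha*, which encodes the A subunit of lactate dehydrogenase. This moderated F test called 1.67% of all tested genes, so 1 of 37 members is near the background. At an unadjusted p under 0.05 it took in 12 of 37 members, against 19.8% of all tested genes. The count of 1 became 19 without null/WT replicate 3 and 13 without WT/null replicate 3, and it was 0 without any 1 replicate of numbers 1 or 2. No share of all tested genes is set beside these counts without 1 replicate, so they do not single out the members. *Ldha* had a log2 brightness of 14.59, 14.91 and 15.34 in null kidneys and of 14.35, 15.00 and 15.27 in WT kidneys. On number 2 the null channels averaged 14.79 and the WT channels 14.42, and on number 3 null averaged 14.79 and WT 15.07. The log2 ratios were 0.05, 0.37 and -0.27 on the 3 numbers (SE 0.05 each, limma adjusted p = 0.0441). Its other probe gave 0.00, 0.21 and -0.04 (adjusted p = 0.304), the same order at smaller size, and did not pass. The call also ended with the scanner's processed signals (adjusted p = 0.0769), with the authors' value table (0.0787), with no filter on dim probes (0.0889) and with the mean of both probes (0.0502).

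Members with the next smallest p in that test had number 2 as their highest value. *Slc16a3* had a log2 brightness of 12.53, 13.04 and 13.52 in null kidneys and of 12.73, 12.86 and 13.01 in WT kidneys, and its ratio was -0.15, 0.45 and 0.19 on numbers 1, 2 and 3 (limma adjusted p = 0.0522). The null channels spread more widely than the WT channels. *Egln2* had an adjusted p of 0.0569. *Pfkl*, the liver-type phosphofructokinase gene, gave -0.05, 0.32 and -0.20 (limma adjusted p = 0.0832). *Eno1*, an enolase gene, gave -0.13, 0.14 and -0.44 (limma adjusted p = 0.0947). *P4ha1* gave -0.05, 0.36 and 0.12, and *Hk1*, a hexokinase gene, 0.01, 0.20 and -0.24. *Aldoc*, an aldolase gene, gave -0.19, 0.19 and 0.00. None of these 7 passed. On number 3 the ratio of *Pfkl*, *Eno1*, *Hk1* and *Egln2* was below 0, while that of *Slc16a3*, *P4ha1* and *Aldoc* was not. The skeletal muscle genes stood at their median of 1.99 on that number, and their part in these values was not tested.

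Of the other enzymes, *Gapdh*, *Tpi1* and *Pgk1* also had their highest value on number 2. *Gapdh*, often used as a reference transcript, had a log2 brightness of 15.07, 15.38 and 15.52 in null kidneys and of 14.84, 15.58 and 15.90 in WT kidneys. Its ratio was -0.22, 0.28 and -0.44 on the 3 numbers (SE 0.16 each), and its second probe gave -0.11, 0.13 and -0.20. *Tpi1*, the triose phosphate isomerase gene, gave -0.21, 0.21 and -0.03, and *Pgk1*, the X-linked phosphoglycerate kinase gene, -0.08, 0.19 and -0.05. *Aldoa*, the main aldolase gene, differed by its brightest probe, which gave 0.02, 0.11 and 0.17 (SE 0.17 each). That probe's ratios were 0.32, 0.76 and 0.30 in null/WT but -0.29, -0.53 and 0.04 in WT/null. The second *Aldoa* probe gave -0.30, 0.22 and 0.21 (SE 0.08 each), so its highest value was narrowly on number 2. *Hk2*, the inducible hexokinase gene, was highest on number 1 (0.18, 0.08 and -0.03). The remaining enzymes *Gpi1*, *Pfkm*, *Pfkp* and *Pgam1* stayed between -0.10 and 0.11 on every number. The flux regulators *Pfkfb3* and *Pfkfb4*, which set the level of fructose 2,6-bisphosphate, stood at 0.05 ± 0.05 and -0.00 ± 0.04 over all replicates.

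**Figure D3:**
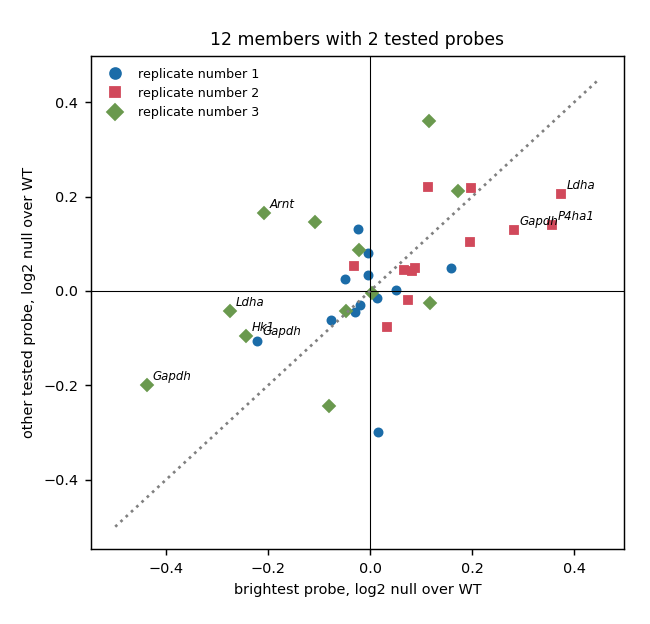
Log2 null over WT of the brightest probe (x axis) against the other tested probe (y axis) for the 12 members with 2 tested probes, 1 point per replicate number. The dotted line marks equal values. The *Ldha* and *Gapdh* points on number 2 lie right of it and on number 3 left of it, so the other probe gave values closer to 0.

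The 12 members with 2 tested probes differed in how far their probes matched. Over all replicates, 7 of the 12 had probes of the same sign, *Ldha* for example at 0.05 by either probe, and 5 had probes of opposite sign: *Arnt*, *Egln1*, *Hk1*, *Pfkfb3* and *Pgk1*. *Hk1* stood at -0.01 ± 0.07 and 0.04 ± 0.06, *Pfkfb3* at 0.05 ± 0.05 and -0.05 ± 0.07, and *Pgk1* at 0.02 ± 0.06 and -0.00 ± 0.05. The probes of *Hk1* and of *Pgk1* lay within 1 SE of each other.

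The members' levels differed between replicate numbers. For 35 of 37 members the range of the mean log2 brightness (both genotypes together) over the 3 numbers was larger than the size of log2 null over WT, as it was for 11834 of 12565 tested genes with a value on all arrays. The median range was 0.26 for the members and 0.21 for all these genes. Members outside glycolysis were brightest on number 2 in 15 of 23 cases, against 42.0% of these genes. Their median difference between numbers 2 and 1 was 0.27 in null kidneys and 0.14 in WT kidneys, beside -0.00 and 0.02 for all these genes. *Bhlhe40* led: it had 8.21, 9.23 and 9.10 in null kidneys and 8.25, 9.17 and 8.82 in WT kidneys on numbers 1, 2 and 3. *Ndrg1* averaged 10.27, 10.92 and 10.80 in null kidneys and 10.18, 10.88 and 10.51 in WT kidneys. *Ankrd37* averaged 10.18, 10.81 and 10.44 in null kidneys and 10.04, 10.58 and 10.36 in WT kidneys. These 3 HIF targets were therefore lowest on number 1 in both genotypes, but not all members were. *Egln2* was highest there, with 11.61, 11.01 and 11.22 in null kidneys and 11.76, 10.86 and 11.68 in WT kidneys. Of the 14 glycolytic enzymes, 5 were brightest on number 1 and 5 on number 2. Since each number is 1 slide, the embryos of a number and their hybridisation cannot be told apart in levels.

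**Figure D4:**
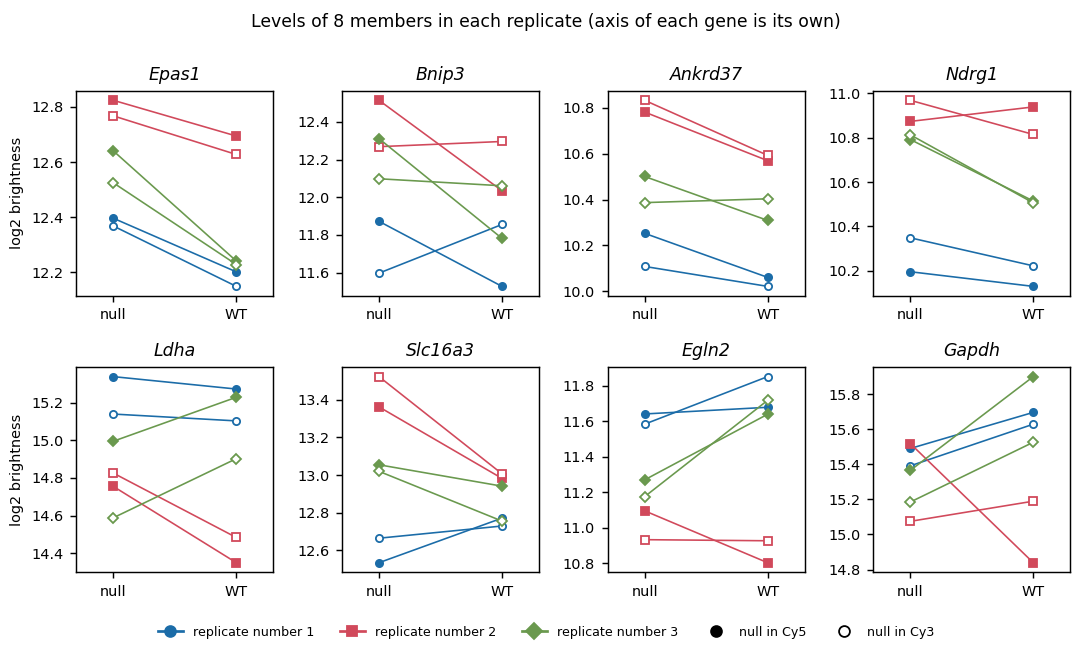
Log2 brightness of 8 members in null kidneys (left) and WT kidneys (right), 1 line per replicate, coloured by replicate number, with filled symbols where null RNA carried Cy5. Each gene has its own axis. The lines of *Epas1* all fall towards WT, and for *Ankrd37* and *Ndrg1* the lines of number 1 lie below those of numbers 2 and 3 in both genotypes.

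Of 48 other HIF pathway genes, 42 were tested and 0 passed, against 0.0237% of all tested genes. At an unadjusted limma p under 0.05, 5 were higher and 1 lower in null kidneys, against 5.18% and 2.59% of all tested genes. *Epo*, *Igfbp3* and *Cox4i2* were not above background. The 4 genes with the smallest p were *Tmem45a* at 0.22 ± 0.06, *Igfbp1*, which encodes a secreted binding protein of insulin-like growth factors, at 0.22 ± 0.07, *Rora*, a nuclear receptor gene, at 0.11 ± 0.04 and *Hilpda*, a lipid droplet gene, at 0.10 ± 0.04. Their adjusted p ran between 0.525 and 0.700. The list's medians on numbers 1, 2 and 3 were 0.01, 0.08 and 0.01, so its number 2 was the highest as well, below the enzymes' median of 0.17.

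Of 45 other genes of glucose metabolism 40 were tested, and their medians on the 3 numbers were -0.02, -0.01 and 0.01. None passed. At an unadjusted limma p under 0.05, 2 were higher and 2 lower in null kidneys, against 5.18% and 2.59% of all tested genes. *Eno3*, the muscle enolase gene, stood at -0.14 ± 0.04, *Tigar*, a phosphatase gene that lowers glycolytic flux, at -0.14 ± 0.05, *Fbp1*, a gluconeogenic enzyme gene of the proximal tubule, at 0.91 ± 0.35 and *Pgam2*, the muscle phosphoglycerate mutase gene, at 0.26 ± 0.10. *Fbp1* gave -0.08, 0.57 and 2.25 on numbers 1, 2 and 3 and *Pgam2* 0.16, 0.00 and 0.63. Number 3 was thus the highest for *Fbp1* and *Pgam2*, as for the lists of skeletal muscle and of late tubules, the latter holding *Fbp1* itself. It was the lowest for the muscle gene *Eno3*, at -0.11, -0.07 and -0.23 on numbers 1, 2 and 3.

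**Figure D5:**
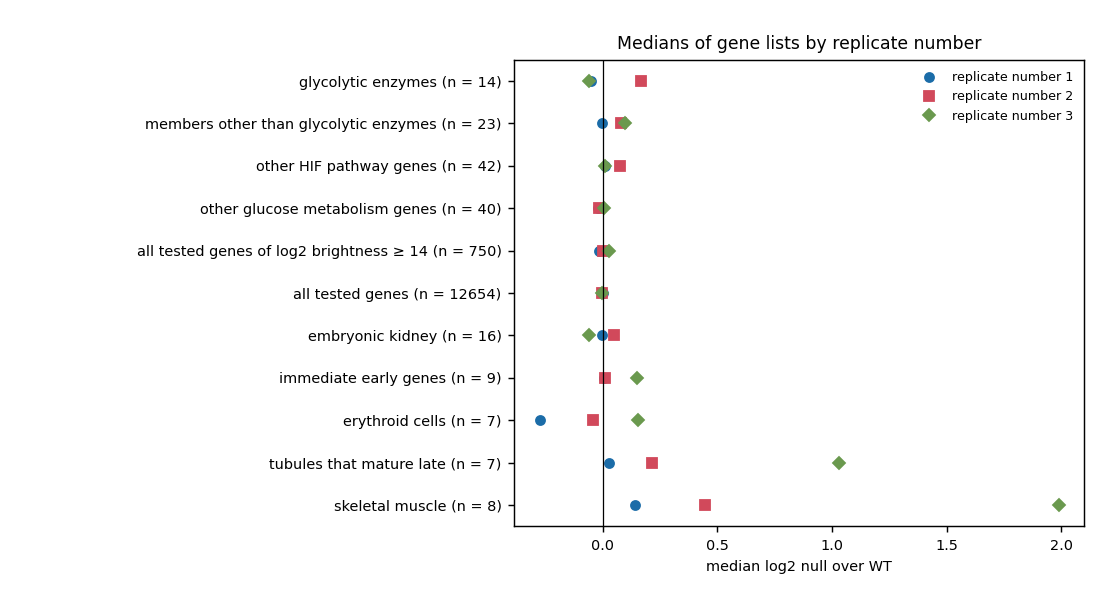
Median log2 null over WT of gene lists on replicate numbers 1, 2 and 3. The glycolytic enzymes stand at 0.17 on number 2 (0.04 with median centring, against -0.09 for all tested genes) and near 0 on the others, while skeletal muscle and late tubule genes stand highest on number 3, at 1.99 and 1.03.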

How the data were processed

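Spot and background brightness were deposited as median pixel intensity per dye, and the file headers name Agilent Feature Extraction 10.5.1.1, while the submitters' processing notes name version 6.1. The deposited series table held log10 ratios, which correlated at 0.998 to 0.999 with the scanner's own ratios turned to null over WT, with slopes of 1.00, so scale and direction are settled; its column medians lay between -0.0218 and 0.00645. How the authors chose blank entries is unknown. The columns without a sample numbered 0.

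Background was corrected with normexp (offset 50) on the median signals, and ratios were normalized by loess within arrays with control and outlier spots at weight 0. The 43379 non-control spots gave 41174 probes, 25097 of them with a symbol through RefSeq accessions. The 2 arrays of a replicate were averaged, leaving 6 values. A probe was tested if well above background in the null or WT channel on at least 6 of 12 arrays (22985 probes). Ratios were fitted by limma (version 3.58.1, R version 4.3.3) for null over WT beside a term for the dye, which passed for 3090 probes, and with Benjamini-Hochberg adjustment over all tested probes. A moderated F test compared the 3 replicate numbers. A gene is given by its brightest tested probe. Precision is limited by the number of replicates: the median SE of a log2 ratio was 0.05 with the 6 values taken as independent, and 0.06 on a single slide. Levels are log2 brightness after loess and Aquantile scaling; probes of different genes are not comparable in level.

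Samples of the same number share a slide, and after removal of each orientation's mean they correlated at 0.587, 0.517 and 0.413, so the number pairs them; the blocked fit has 3 pairs. If both orientations used the same RNA extracts, only 3 samples per genotype were independent. The error of the F test would then be the spread between hybridisations of the same RNA, not between samples. Members, lists and tests were chosen with earlier results of these data known. Named were the HIF subunits and sensors, members past a threshold, the 10 and 8 members with the smallest p in the 2 tests, members with probes of opposite sign and up to 4 genes per other pathway list; *Gapdh*, *Aldoa*, *Hk2* and other enzymes were described after their values were seen.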

Additional observations from a re-analysis of the deposited data

Results flagged for a closer look

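*Ldha*, by its probe A_51_P364146, had different null over WT on the 3 replicate numbers (limma moderated F test, adjusted p = 0.0441), with log2 values of 0.05, 0.37 and -0.27 on numbers 1, 2 and 3. Both orientations had the same sign on each number. The second probe had an adjusted p of 0.304. The test called 1.67% of all tested genes. Groups of 3 replicates are too small for a check of single outlying samples.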

How the results depend on the processing

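The count of members past the threshold for null over WT was 0 under all 18 alternatives, and with the replicate number as a block, which is the paired analysis, it was 0 as well with a median of 0.02. That block changed no call. The members' median stayed within 1 SD of the 6 replicate medians (0.08) except with median centring, where it was 0.226 and that of all tested probes 0.138; the slides' correlation as a random block was 0.373. Leaving out 1 replicate gave medians between -0.00304 and 0.0510, and leaving out slide 1, 2 or 3 gave 0.06, -0.00 and 0.03.

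The count of members that differed between replicate numbers, 1 in the report, was the less steady one. It was 0 with the scanner's signals, with the authors' value table and with no filter on dim probes. It was 16 with median centring, 10 with probes above background in both channels on all 12 arrays, 6 once the first array of WT/null replicate 3 was dropped, and 3 with the mean of all probes of a gene. Leaving out 1 replicate gave 0 to 19, namely 0 without either replicate of numbers 1 or 2, 19 without null/WT replicate 3 and 13 without WT/null replicate 3; the single orientation left on a slide is then assumed to vary like the others. The number of all tested probes past the same threshold moved too, under 12 alternatives, and stayed the same under 1. Like the members' count, it rose with median centring and with probes above background in both channels on all 12 arrays. It fell, as theirs did, with the scanner's signals, the authors' value table and no filter on dim probes. No share of all tested probes is set beside the members' counts under the alternatives, so those counts do not single out the members. Why these counts differ was not tested. The members' median on replicate number 2, 0.11 in the report, was -0.01 with median centring, where all tested genes stood at -0.09. The number of replicates limits the precision, and the median SE of 0.05 takes the 6 replicates as independent. Differences well above it can stay unresolved: *Epas1* at 0.23 did not pass (limma adjusted p = 0.353).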
